A study of Danio rerio with 6 samples.

Results

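Erythrocytes were taken from single-cell libraries of adult zebrafish ventricle as 1071 of 65399 barcodes that passed a filter on cells, out of 69400 deposited barcodes. A member had at least 500 UMIs (unique molecular identifiers, each standing for 1 captured RNA molecule) and at least 200 genes, with at most 30% of its UMIs from mitochondrial genes. It also had to show at least 2 of the 6 genes alas2, slc4a1a, epb41b, nt5c2l1, hemgn and cahz. Members had no UMI of 4 excluded genes, the macrophage gene mpeg1.1, the endothelial gene cdh5, the thrombocyte gene itga2b and the epicardial and fibroblast gene tcf21. The study, titled as one of Cloche and platelets in heart regeneration, compared wild-type (WT) fish with heterozygotes (clofv087b/+, het here). Each genotype was sampled as sham, 3 days post heart amputation (dpa) and 7 dpa, giving 6 libraries with 1 library per group. The strain and age of the fish are not given in the sources used here. The sham libraries carry the treatment label "untreated". Each library pooled 15 ventricles, dissociated in the cold, stained with a Hoechst DNA dye and sorted for single cells. The cloche locus encodes Npas4l, a transcription factor that zebrafish embryos need for blood and endothelial lineages.

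Zebrafish erythrocytes keep their nucleus, so they pass a sort for DNA-containing cells. They carry oxygen on haemoglobin, a tetramer of alpha and beta globin chains with heme, and exchange bicarbonate and chloride through the anion exchanger Slc4a1a, which is tied to a spectrin skeleton by protein 4.1 (epb41b). Heme synthesis begins with the enzyme Alas2, and the transcription factor Gata1a, with KLF1 in mammals, drives the erythroid programme. The switch from embryonic to adult globin genes occurs during the life of the fish, and the adult alpha and beta genes lie side by side as near-identical copies.

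The libraries held between 63752936 and 117947578 UMIs, with a median of 4054 to 7318 UMIs per passing barcode. No deposited barcode had fewer than 500 UMIs, so cells below that depth were not analysed here. Of the 69400 barcodes, 557 sequences occurred in more than 1 library, and 0 sequences were members in more than 1 library. Whether a shared sequence was a member in only 1 of its libraries was not counted. Each group is 1 library with no replicate, and no test between groups was made. Intervals below are exact 95% intervals that cover counting error only, not differences between fish or between libraries. For gene levels and ratios they treat UMIs as independent, so the spread between cells of a library is left out too.

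The label was checked against haemoglobin, which the rule did not use. Haemoglobin genes here are 14 named globin symbols plus si:ch211-5k11.8, for which RefSeq (assembly GRCz12tu) lists the other name hbaa1.2 and which it places beside hbba1. The median haemoglobin share was 25.1% of UMIs in members and 0.0615% in the 64328 other barcodes. At low depth the gap was also wide: the 499 members with under 1000 UMIs had a median of 16.1%, and the 11725 other barcodes of that depth had 0.716%. The members did not form 1 uniform group.

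A set of 336 members had at least 50% haemoglobin. Their median depth was 3683.5 UMIs, spread over a median of 395.5 genes, with 75.4% haemoglobin and 1.80% mitochondrial UMIs. Another 654 members lay between 1 and 50% haemoglobin, with a median depth of 761.5 UMIs, 17.7% haemoglobin and 10.3% mitochondrial UMIs. The remaining 81 members went against the label. They had under 1% haemoglobin, a median of 18694 UMIs over 2544 genes, and 7.44% of UMIs from 6 cardiomyocyte markers, against 0.416% in the haemoglobin-rich set, and 76 of the 81 showed only 2 rule genes. The limits of 50% and 1% were chosen after the values had been seen.

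**Figure D1:**
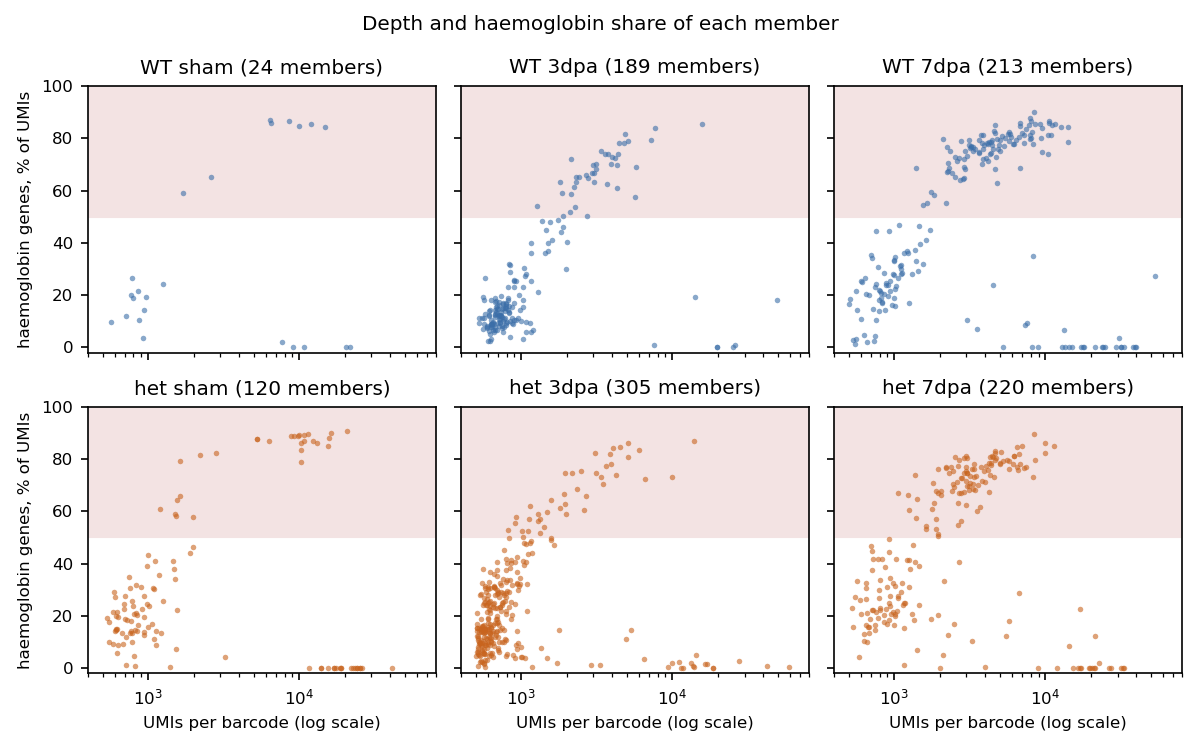
Each point is 1 member; the horizontal axis is its UMIs on a log scale, the vertical axis the percentage of UMIs from haemoglobin genes, and each panel is 1 library with its number of members. The shaded band marks 50% or more; haemoglobin share climbs with depth up to 90.8%, while deep members near 0% form a separate row at the lower right.

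Haemoglobin share was higher where more rule genes were seen. It had a median of 14.0% in the 454 members with 2 rule genes, 22.4% in 236 with 3, 58.9% in 158 with 4, 73.5% in 118 with 5 and 78.9% in 105 with all 6. Depth moved with this order, from a median of 783 to 6597 UMIs, and its part in the result was not tested. Just outside the rule, 2371 barcodes with 1 rule gene and no excluded gene had a median haemoglobin share of 0.0449%. Another 195 barcodes had at least 2 rule genes and also an excluded gene, with a median of 9.41%. In all, 40 non-members had at least 50% haemoglobin, so the rule missed some haemoglobin-rich barcodes.

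The share of members was lowest in WT sham. There were 24 members (0.210% of passing barcodes, 0.135 to 0.313) in WT sham, 189 (2.08%, 1.80 to 2.39) in WT 3 dpa and 213 (1.67%, 1.45 to 1.91) in WT 7 dpa. The het sham library held 120 (1.33%, 1.1 to 1.59), het 3 dpa 305 (3.39%, 3.03 to 3.79) and het 7 dpa 220 (1.56%, 1.36 to 1.78). Both genotypes had their highest share at 3 dpa, and the 2 libraries at 7 dpa lay within each other's intervals. That order depended on the limits for a cell. With at least 1000 UMIs per barcode the shares at 3 and 7 dpa were 1.01 and 1.57% for WT and 1.22 and 1.45% for het, so 7 dpa was the higher in both. A mitochondrial limit of 10% gave 1.65 and 1.98% for WT and 2.33 and 1.83% for het.

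As log2 ratios, the het share stood above the WT share by 2.66 (2.02 to 3.36) in the sham libraries and 0.71 (0.44 to 0.98) in the 3 dpa libraries. In the 7 dpa libraries the ratio was -0.10 (-0.38 to 0.18). Against their own sham library, WT shares gave 3.31 (2.69 to 3.98) for 3 dpa and 2.99 (2.38 to 3.66) for 7 dpa. Het shares gave 1.35 (1.04 to 1.67) and 0.23 (-0.10 to 0.56). The ratios over sham of each genotype share that genotype's sham library, so the 24 members of WT sham enter both WT ratios and the het over WT ratio at sham. WT sham was also lowest in haemoglobin outside the members. Haemoglobin genes made up 0.0148, 0.0726 and 0.156% of the UMIs of all other barcodes for WT (sham, 3 dpa, 7 dpa). For het they made up 0.0929, 0.143 and 0.154%. How far the amount of blood RNA in a library goes with its share of members was not tested.

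The haemoglobin-rich set also had another order of stages. It held 8, 40 and 110 members for WT (sham, 3 dpa, 7 dpa) and 28, 41 and 109 for het, so the count was highest at 7 dpa in both genotypes. The log2 ratio of its het to its WT share was 2.15 (0.98 to 3.49) for sham, 0.05 (-0.61 to 0.72) for 3 dpa and -0.16 (-0.56 to 0.24) for 7 dpa. At 3 dpa, 60.3% of WT and 73.4% of het members had under 1000 UMIs, compared with 22.1 and 24.1% at 7 dpa. The median mitochondrial share of members was also higher at 3 dpa, at 10.2 and 11.8%, against 3.32 and 3.42% at 7 dpa. The part of depth and RNA quality in the 3 dpa shares was not tested. How many blood cells remain in a dissected ventricle was not measured, so blood left in the tissue and erythrocytes of the tissue cannot be told apart.

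**Figure D2:**
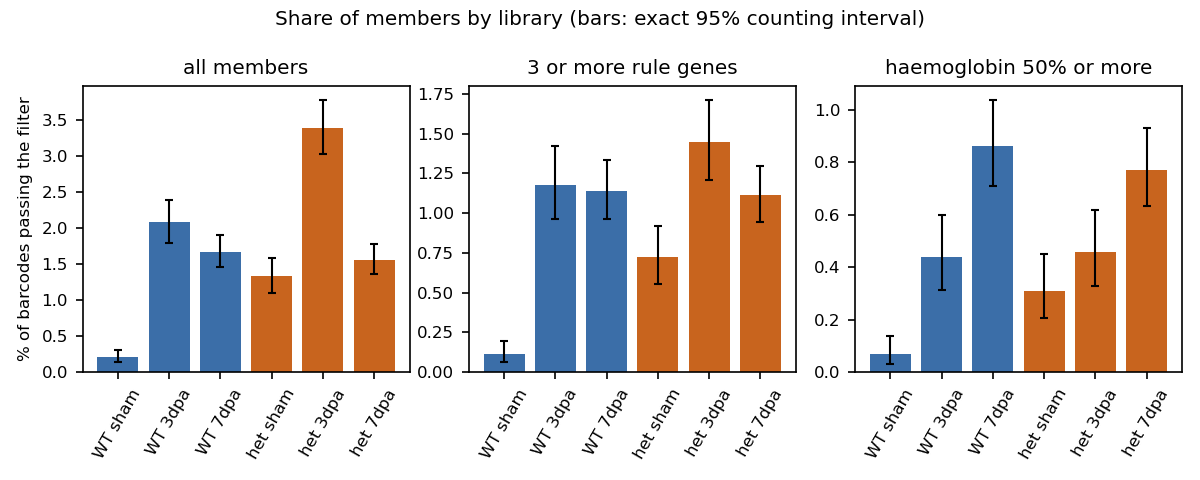
Bars give members as a percentage of passing barcodes in each of the 6 libraries (blue WT, orange het), with exact 95% counting intervals, for all members, for members with 3 or more rule genes and for members with 50% or more haemoglobin. WT sham is lowest in every panel, and the haemoglobin-rich set peaks at 7 dpa (110 and 109 members) and not at 3 dpa.

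Levels are given from here as CPM, the UMIs of a gene per 1000000 of the summed UMIs of members in a library, and comparisons with the rest as the mean over the 6 libraries of the log2 ratio with 10 CPM added. These describe the members chosen by the rule and carry no test. Of 6821 genes with at least 20 UMIs in members, 66 (0.968%) were at least 2-fold higher in members on average and higher in 6 of 6 libraries. In the other direction 807 (11.8%) were at least 2-fold lower. The median of all 6821 genes was -0.41. Haemoglobin genes took 21.2% of the summed UMIs of members in het 3 dpa and 30.5% or more in the other libraries.

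The 15 genes furthest above the rest were higher in 6 of 6 libraries. The adult globins led, with hbaa1 (alpha chain) at 8.62, si:ch211-5k11.8 at 8.53, the hbba1 identifiers ENSDARG00000089087 and ENSDARG00000097238 (beta chain) at 8.44 and 8.30, hbba2 at 7.88 and hbaa2 at 7.54. Then came si:ch211-103n10.5 at 6.56 and si:ch211-250g4.3 at 6.18, named in the files only by their clones. The 6 rule genes stood at 6.12 for cahz (carbonic anhydrase, which hydrates carbon dioxide), 5.30 for alas2, 5.06 for hemgn (hemogen, an erythroid nuclear protein), 4.75 for slc4a1a, 4.59 for epb41b and 4.57 for nt5c2l1 (a member of the cytosolic 5'-nucleotidase family). The last was si:dkey-16p21.8 at 4.19, which RefSeq lists as a long non-coding RNA.

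si:ch211-250g4.3 was not a rule gene, yet it was detected in 82.7% of members and 2.37% of the rest. It was seen in 92.6% of the haemoglobin-rich members and 85.8% of those between 1 and 50% haemoglobin. In the 81 low-haemoglobin members it was seen in 17.3%, at 19.7 CPM. Its level was 2679 CPM in members between 1 and 50% haemoglobin and 1477 CPM in the haemoglobin-rich set. CPM counts haemoglobin in the total, at a median of 17.7% of UMIs in the first set and 75.4% in the second. As counts, it had 2551 UMIs over the 654 members of the first set and 2309 over the 336 of the second. The higher CPM of the first set therefore did not hold per member.

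**Figure D3:**
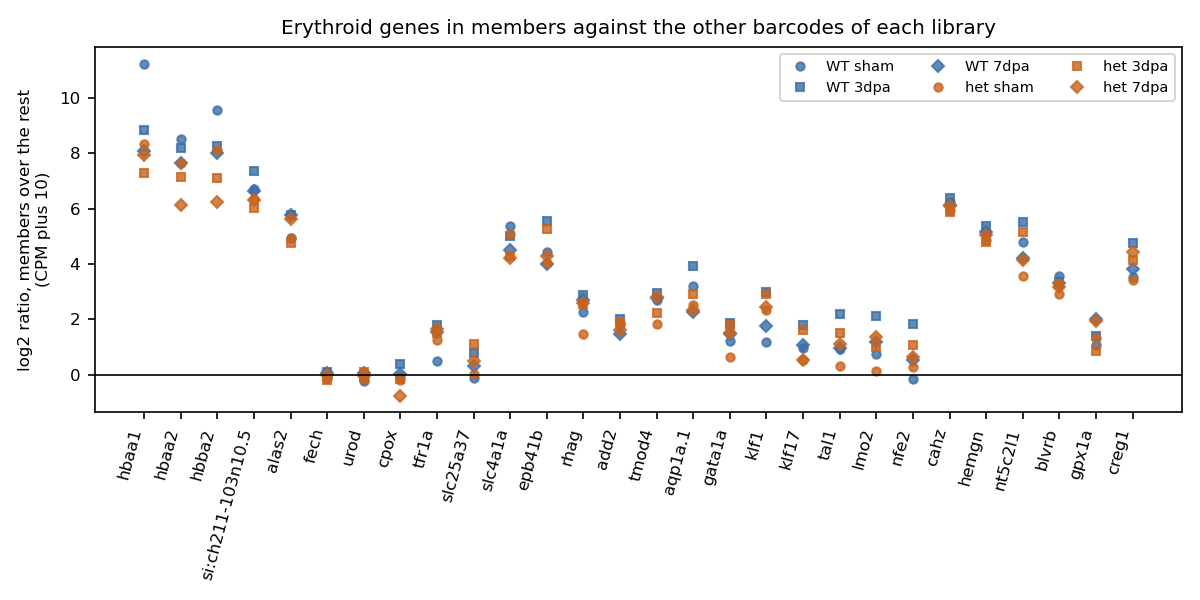
For 28 listed erythroid genes, the vertical axis gives the log2 ratio of members over the other barcodes of the same library (CPM plus 10), with 1 symbol per library. Globins, cahz, alas2, hemgn and slc4a1a stand above the line at 0 in all 6 libraries, while the later heme enzymes fech, urod and cpox lie near it. fech and urod had fewer UMIs in members than the minimum of 20, and the added 10 CPM draws such ratios towards 0.

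Among 17 identifiers in the list of globins, 9 had at least 20 UMIs in members and 8 of those were higher than the rest by the rule above, including si:ch211-103n10.5, which the sources used here do not annotate as a globin. The median was 7.54, against -0.41 for all genes. Globins of the embryo and larva were scarce, although hbae5 and zgc:163057 were among the 8. hbae5 had 98 UMIs in all members and the hbae1.3 identifiers 44 and 18, hbbe2 had 19, hbbe1.1 had 4 and hbbe1.3 had 2. No UMI of hbae1.1, hbae3, hbbe1.2 or hbbe3 was seen in members, against 355068 UMIs of hbaa1. zgc:163057, named hbae4 in RefSeq, had 281 UMIs and was seen in 17.8% of members and 0.264% of the rest.

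The mix of adult alpha genes differed between libraries and between cells of a library. hbaa1 made up 52.1% of the summed hbaa1 and si:ch211-5k11.8 UMIs in WT sham, 58.5% in WT 3 dpa and 38.8% in WT 7 dpa. Het members had 53.7, 27.6 and 53.4% at the same stages. The low het 3 dpa value and the intermediate WT 7 dpa value stand apart from the other 4 libraries. The UMIs of these genes in all other barcodes, which can come from free RNA in the droplets, gave 46.9, 58.0 and 36.4% for WT and 53.2, 27.2 and 52.5% for het. RefSeq gives hbaa1.2 as another name of si:ch211-5k11.8. Reads may be shared between such related genes, so how they were assigned is uncertain.

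Per cell, the mix was counted in 3 bands with limits at 35 and 65%. Of 564 members with at least 200 haemoglobin UMIs, hbaa1 made up under 35% of the pair in 208, between 35 and 65% in 296 and at least 65% in 60, with a range from 10.4 to 84.7%. In het 3 dpa, 108 of 113 such members were under 35% and 0 were at 65% or above. In het 7 dpa the bands held 18, 133 and 14 members, and in WT 7 dpa 60, 97 and 0. WT 3 dpa held 9, 25 and 35, het sham 9, 32 and 9, and WT sham 4, 4 and 2. All 3 bands were present in 4 of the 6 libraries. The band limits were set after the values had been seen, and whether the cells form separate groups was not tested. Since each library pooled 15 fish, differences between fish and differences within a fish cannot be told apart.

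**Figure D4:**
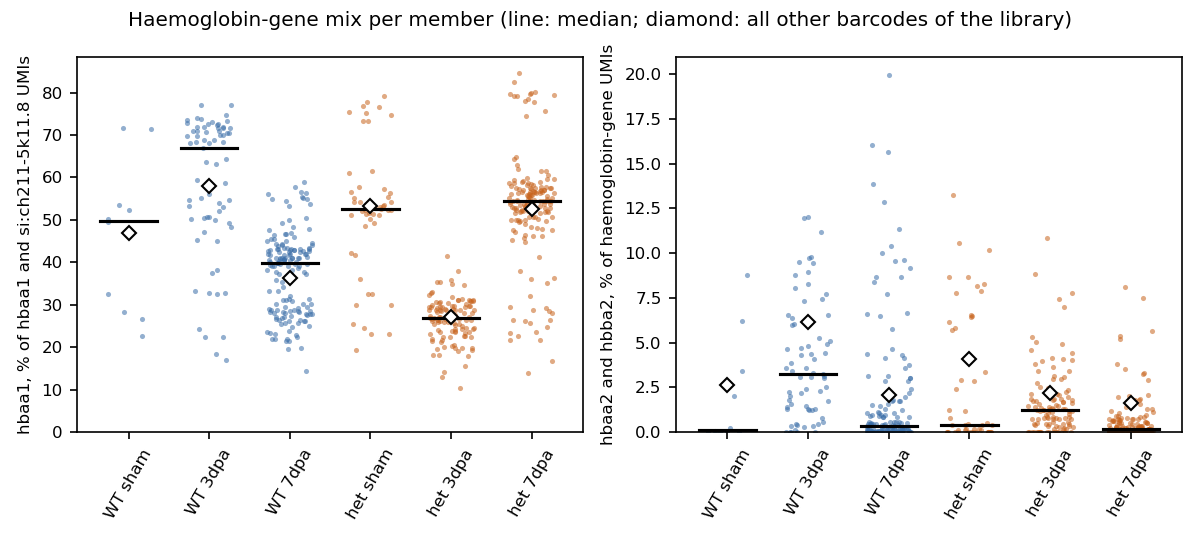
Each point is 1 of 564 members with at least 200 haemoglobin UMIs, by library. The left panel gives hbaa1 as a percentage of hbaa1 and si:ch211-5k11.8 UMIs, the right panel hbaa2 and hbba2 as a percentage of haemoglobin UMIs; lines are medians and diamonds the value over all other barcodes. On the left het 3 dpa lies low (median 27.0%) and WT 3 dpa high (66.9%), and on the right most members lie below 1% with a tail up to 19.97%.

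Over all 564 members the beta genes showed less spread, with quartiles of 70.8 and 79.0% against 28.7 and 54.9% for the alpha mix. In het 3 dpa the beta mix was the wider, with quartiles of 56.3 and 70.7% against 23.5 and 29.7%. The hbba1 identifier ENSDARG00000089087 made up a per-cell median of 78.1, 78.9 and 73.9% of the UMIs of both hbba1 identifiers for WT (sham, 3 dpa, 7 dpa) and 79.1, 63.7 and 78.0% for het. The lowest median was again het 3 dpa. Across members of 1 library the alpha and beta mixes were related differently. Spearman's rho was 0.68 over 69 members of WT 3 dpa, 0.33 over 50 of het sham and -0.61 over 113 of het 3 dpa. It was 0.56 over 10 members of WT sham, -0.003 over 157 of WT 7 dpa and 0.13 over 165 of het 7 dpa. All these cells share a library and its free RNA, so the values are descriptions.

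The lesser adult pair, hbaa2 and hbba2, was unequal between cells. RefSeq places these genes next to each other, as it does hbaa1 and hbba1. Together they made up under 1% of haemoglobin UMIs in 349 of the 564 members and at least 5% in 69, with a range from 0 to 19.97%. The per-cell median was 0.125, 3.25 and 0.318% for WT and 0.405, 1.2 and 0.151% for het. WT 3 dpa had the highest median, and 21 of its 69 members were at 5% or above, compared with 5 of 165 in het 7 dpa. The shares of hbaa2 and hbba2 went together across the members of each library, with Spearman's rho between 0.58 (165 members of het 7 dpa) and 0.95 (10 members of WT sham), again as a description. As a level, hbba2 stood at 9608, 10224 and 7727 CPM for WT and 9364, 3887 and 2108 CPM for het. Its 1361 UMIs in WT sham came from 9 members, 649 of them from 1 member. The het to WT log2 ratio of hbba2 by stage was -0.04 (-0.12 to 0.05), -1.40 (-1.47 to -1.32) and -1.87 (-1.94 to -1.80). Haemoglobin-rich members gave 0.37 (0.28 to 0.45), -0.44 (-0.52 to -0.36) and -1.67 (-1.75 to -1.60).

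Of the heme synthesis genes, 1 of 8 with enough UMIs was higher than the rest and 0 were lower, beside 0.968 and 11.8% of all genes. The higher one was alas2, which is a rule gene, so its place was set by the choice of members. The list's median was -0.02. Of the later enzymes, urod, fech and ppox were scarce, with 6, 4 and 6 UMIs in all members. By contrast uros had 69 and hmbsb 65, the last with a mean log2 ratio of 1.06 that was positive in 5 of 6 libraries. In the iron list, 1 of 8 was higher and 2 were lower. The higher one was tfr1a, the transferrin receptor that brings iron into erythroid cells, at 1.37, detected in 12.7% of members and 4.99% of the rest. The lower ones were slc40a1, the iron exporter ferroportin, at -1.78, and the ferritin gene fthl27 (ENSDARG00000031776) at -2.21. fth1a, a ferritin heavy chain gene, was high in both, at 1587 to 2560 CPM in members and 1047 to 2534 CPM in the rest.

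In the list of membrane and skeleton genes 6 of 12 were higher and 0 lower, with a median of 1.37, read against the same 0.968 and 11.8% of all genes as the lists after it. Beside the rule genes slc4a1a and epb41b, which were high by choice, these were aqp1a.1 (a water channel) at 2.86, tmod4 (a tropomodulin that caps actin filaments) at 2.55, rhag (the Rh-associated glycoprotein) at 2.41 and add2 (beta adducin) at 1.78. Beta spectrin, sptb, was at 0.59 and was detected in 23.2% of members and 21.3% of the rest. Of the erythroid transcription factors, 5 of 9 were higher and 0 lower, with a median of 1.08. They were klf1 at 2.27, gata1a at 1.42, tal1 at 1.17, lmo2 at 1.09 and klf17 at 1.08. klf1 was detected in 14.7% of members and gata1a in 6.63%, compared with 0.400 and 0.611% of the rest. Markers of early progenitors were nearly absent, with 0 UMIs of kita and 1 UMI of myb. The erythropoietin receptor gene epor had 23 UMIs and was seen in 2.15% of members and 0.0280% of the rest. The gene of the cloche locus, npas4l, had 2 UMIs in members, both in het 7 dpa, so its level could not be compared between genotypes.

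In the list of redox and metabolism genes 6 of 14 were higher and 3 lower. Beside the rule genes cahz, hemgn and nt5c2l1, again high by choice, the higher ones were creg1 (a secreted glycoprotein) at 4.02, blvrb (biliverdin reductase B) at 3.26 and gpx1a (glutathione peroxidase) at 1.44. creg1 was detected in 75.4% of members and 17.4% of the rest. hmox1a, the heme-degrading enzyme that macrophages use, was lower at -2.74, pgd (pentose phosphate pathway) at -1.16 and hbegfb at -1.19. No gene was higher in the lists of organelle clearance (3 of 8 lower), cell cycle (2 of 10), heat shock (6 of 13), immediate early and apoptosis (11 of 19), interferon response (3 of 7) and signalling (1 of 7). Their medians lay between -0.28 and -1.15, against -0.41 for all genes. In the haemoglobin-rich set the medians were -1.62, -1.05, -2.84, -3.34, -1.04 and -1.37 in that order, against -1.25 for all genes. Organelle clearance and signalling lay above the median of all genes in all members and below it in that set. Cell cycle and interferon response did the reverse.

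Markers of other cell types were compared as whole lists. Cardiomyocyte markers summed to 22177 to 49083 CPM in members and 34342 to 49464 CPM in the rest, and 98.9% of members and 99.2% of the rest had at least 3 UMIs over at least 2 of these markers. In the haemoglobin-rich set they summed to 1009 to 4621 CPM. Macrophage markers summed to 113 to 566 CPM in members and 2112 to 3639 CPM in the rest, with 5 of 5 measured genes lower (marco, c1qa, c1qb, csf1ra and mfap4), and endothelial markers to 18.4 to 63.5 CPM against 128 to 983 CPM. The excluded genes mpeg1.1, cdh5, itga2b and tcf21 are at 0 by the rule. No gene was higher in the lists of fibroblast or epicardial (2 of 4 lower), mural (1 of 6), neutrophil (0 of 1) and glial markers (0 of 3), and T, NK and B cell markers had too few UMIs. Of the thrombocyte list, 2 of 4 were higher in members and 1 was lower, with a median of 0.39 (0.03 in the haemoglobin-rich set). The higher ones were gp9 at 3.51 and gp1bb at 1.76, parts of the platelet receptor for von Willebrand factor, and the lower one was the fibronectin gene fn1b at -3.51. gp9 was detected in 36.2% of members and 1.48% of the rest, while mpl, another defining marker of thrombocytes, had 1 UMI. In haemoglobin-rich members gp9 stood at 174 CPM and in the low-haemoglobin members at 4.45 CPM.

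For the comparisons between libraries, a gene counted as past 2-fold with at least 20 UMIs in at least 1 of the 2 libraries and a log2 ratio of at least 1 in size, with 10 CPM added. The ratios printed below for single genes are without that addition. The share of genes past 2-fold differed between comparisons. Het over WT, it was 13.2% higher and 3.85% lower of 1764 genes at sham, 10.6 and 2.62% of 2479 at 3 dpa, and 2.48 and 2.84% of 2780 at 7 dpa. At 3 dpa over sham it was 30.4% higher and 6% lower of 1484 genes for WT and 32.2 and 7.25% of 2730 for het. At 7 dpa over sham, 15% of 2635 genes for WT and 10.9% of 2292 for het were past 2-fold in either direction. The median log2 ratio of all genes was 0.20, 0.32 and -0.03 for het over WT by stage, 0.47 and 0.50 at 3 dpa over sham, and 0.09 and -0.10 at 7 dpa over sham. The balance of higher and lower genes depended on the scaling. Het over WT at 3 dpa had 263 higher and 65 lower genes by total UMIs, 200 and 122 by the total without haemoglobin and mitochondrial genes, and 181 and 94 by the median of ratios, with medians of 0.32, 0.12 and 0.15. Het 7 dpa over sham had 135 and 114, 203 and 102, and 185 and 67 in the same order, with medians of -0.10, 0.04 and 0.08. WT 7 dpa over sham had 292 and 103 by total UMIs and 362 and 60 by the median of ratios.

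These counts move with the members' makeup. In the haemoglobin-rich set alone, 22 of 193 genes were past 2-fold at sham for het over WT, 32 of 268 at 3 dpa and 37 of 574 at 7 dpa. The balance of directions turned with the set. Het over WT at sham had 233 higher and 68 lower of 1764 genes in all members. Members with at least 1% haemoglobin had 26 and 50 of 381, and the haemoglobin-rich set 8 and 14 of 193. At 3 dpa the counts were 263 and 65 of 2479, 195 and 65 of 1526, and 5 and 27 of 268 in that order. Het 7 dpa over sham had 135 and 114 of 2292, 286 and 9 of 1011, and 196 and 7 of 455. The median log2 ratio of all genes in the haemoglobin-rich set was -0.23, -0.20 and 0.13 for het over WT by stage. Over sham it was 0.68 for WT and 0.59 for het at 3 dpa, and 0.38 and 0.90 at 7 dpa. Ratios of single genes over sham in that set are to be read beside these medians. The low-haemoglobin members with their cardiomyocyte transcripts were 4 of 24, 5 of 189 and 21 of 213 for WT and 21 of 120, 12 of 305 and 18 of 220 for het. Being deep, they held far more of the summed UMIs, at 43.8, 22.6 and 37.4% for WT and 57.6, 32.0 and 36.5% for het. Every ratio over all members is one of such sums. The part of that makeup in them was not tested.

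Of the 7 erythrocyte markers (the rule genes and hbaa1), 0 were past 2-fold higher in het over WT at any stage, and 1, 2 and 0 were lower at sham, 3 dpa and 7 dpa. Their medians were -0.16, -0.63 and -0.07. In the haemoglobin-rich set 1, 0 and 0 were lower and the medians were 0.00, -0.13 and -0.02. Since 6 of the 7 chose the members, their levels within members are partly set by the rule. Of the globins with enough UMIs, 0 of 8, 6 of 9 and 3 of 8 were past 2-fold lower and 0 higher for het over WT at the 3 stages, beside 3.85, 2.62 and 2.84% of all genes lower. That list holds si:ch211-103n10.5, 1 of the 6 lower at 3 dpa, and lacks si:ch211-5k11.8, which stood at 79098 CPM for WT and 91274 CPM for het there, a ratio of 0.21 (0.19 to 0.23). Haemoglobin-rich members gave 0 of 7, 0 of 8 and 3 of 8 lower, and 1 of 7 higher at sham. The membrane and skeleton list had 0 of 7, 0 of 6 and 0 of 7 past 2-fold in either direction. Heme synthesis had 0 higher and, at 3 dpa, 1 of 3 lower (alas2). The erythroid transcription factors had 1 of 4 higher at sham and 0 of 3 and 0 of 6 later, with 0 lower.

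By the rule for named genes, 45 genes with a mean CPM in members at least 2 times that in the rest had a ratio of the same sign for het over WT at all 3 stages. The 5 furthest below WT were mibp, slc4a1a, arl4ab, tspo and zgc:163057, and above it were only zgc:56095 and klf1. mibp (muscle-specific beta 1 integrin binding protein) stood at 311, 325 and 399 CPM for WT and 85.2, 184 and 262 CPM for het. Its log2 ratio by stage was -1.87 (-2.45 to -1.27), -0.82 (-1.19 to -0.45) and -0.61 (-0.83 to -0.38). Among haemoglobin-rich members it was -1.87 (-2.81 to -0.92), -0.77 (-1.60 to 0.01) and -0.39 (-0.66 to -0.12), so the direction was the same there. In the rest of each library mibp was also lower for het, at 9.86, 24.1 and 14.4 CPM against 30.4, 27.7 and 27.4 CPM, and the part of free RNA was not tested.

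slc4a1a stood at 424 (323 to 545), 344 (291 to 403) and 243 (216 to 272) CPM for WT and 339 (297 to 386), 202 (168 to 240) and 200 (173 to 231) CPM for het. Its het over WT ratio was -0.32 (-0.73 to 0.11), -0.77 (-1.12 to -0.42) and -0.28 (-0.55 to -0.01). All 3 intervals included 0 in the haemoglobin-rich set, with -0.08, -0.14 and -0.13. As a rule gene, slc4a1a has a level in members that is partly set by the rule. klf1 had 2, 32 and 31 UMIs for WT and 29, 48 and 45 for het, and its ratio of 0.94 (0.25 to 1.65) at 7 dpa was the only 1 of the 3 whose interval left out 0. For arl4ab, zgc:163057 and zgc:56095 all 3 intervals included 0. For tspo, an outer mitochondrial membrane protein, 2 of 3 did, the 7 dpa ratio being -0.39 (-0.61 to -0.18). In haemoglobin-rich members klf1 kept its 7 dpa interval above 0, at 0.92 (0.14 to 1.73), and tspo stood at -0.45 (-0.71 to -0.19). At 3 dpa the sign there turned for arl4ab at 0.38, tspo at 0.30 and zgc:163057 at 0.30, each with an interval that included 0. In the same haemoglobin-rich members tspo was also above 0 at sham, at 0.25 (-0.36 to 0.91). arl4ab was above 0 at 7 dpa, at 0.02 (-0.43 to 0.46).

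At 3 dpa over sham, 56 genes had the same sign in both genotypes. The highest were mt2, wnk4b, si:dkey-188i13.9, znfl2a and ftr76. mt2, wnk4b and ftr76 were 2-fold above the rest in 2 of 6 libraries and entered the ranking through their 3 dpa levels, so their place at its top was partly set by that choice. mt2, a metallothionein that binds zinc and copper, had 0 UMIs in WT sham, 50 in WT 3 dpa and 5 in WT 7 dpa, and 4, 67 and 16 for het. With 3 UMIs set in place of the 0 of WT sham, mt2 was 5.44-fold higher at 3 dpa. The lower limit of its exact interval was a log2 ratio of 2.09. In het the log2 ratio was 4.20 (2.78 to 6.12). Its UMIs came from 26 and 43 members at 3 dpa, with at most 6 from 1 member. In the rest of the library mt2 was at 4.79 and 3.97 CPM for WT (sham, 3 dpa) and 5.71 and 8.14 CPM for het, against 115 and 106 CPM in the 3 dpa members. Haemoglobin-rich members had 0 and 24 UMIs of it for WT and 0 and 9 for het.

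si:dkey-188i13.9, which RefSeq names ifi27.6 with the other name isg12.6, belongs to a family of interferon-stimulated genes. It stood at 113, 420 and 94.6 CPM for WT and 21.7, 180 and 126 CPM for het. Its 3 dpa over sham ratio was 1.89 (1.16 to 2.73) for WT and 3.05 (2.27 to 3.94) for het, and in the haemoglobin-rich set 1.76 (0.98 to 2.64) and 2.65 (1.60 to 3.83). In the rest of the library it also stood higher at 3 dpa, at 48.6 against 11.8 CPM for WT and 20.8 against 8.28 CPM for het. From the fixed interferon list isg15, a ubiquitin-like modifier, had 3, 88 and 66 UMIs in WT members and 8, 115 and 57 for het. Its 3 dpa over sham ratio was 3.26 (1.67 to 5.57) and 3.98 (2.96 to 5.23), and in the haemoglobin-rich set 3.48 (0.88 to 8.83) and 3.88 (1.79 to 7.05) from 1 and 2 UMIs at sham. isg15 in the rest was 59.9 and 186 CPM for WT and 67.1 and 132 CPM for het, so it moved the same way outside the members, and the part of free RNA was not tested. Of the list, 4 of 4 genes with enough UMIs were past 2-fold higher in WT at 3 dpa and 1 of 3 for het, beside the 30.4 and 32.2% of all genes given above.

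The cell cycle list had 3 of 3 genes past 2-fold higher for WT and 6 of 6 in het at 3 dpa over sham, beside 30.4 and 32.2% of all genes. Markers of other cell types also moved in the same comparison, in both directions. Macrophage markers had 2 of 4 past 2-fold higher for WT and 4 of 4 for het, with medians of 0.95 and 1.48, and fibroblast or epicardial markers 3 of 3 and 2 of 2, with medians of 3.35 and 3.58. None of these macrophage, fibroblast or epicardial markers had enough UMIs in the haemoglobin-rich set. Cardiomyocyte markers had 3 of 6 past 2-fold lower for WT and 2 of 6 for het, with medians of -1.16 and -0.85. Of all genes, 6 and 7.25% were lower. In the haemoglobin-rich set 2 of 5 cardiomyocyte markers were higher for WT and 5 of 5 for het (medians 0.70 and 2.17). Of all genes in that set, 93 of 259 were higher for WT (median 0.68) and 74 of 232 for het (median 0.59). The WT median of these markers was thus near that of all genes. Mural markers had 1 of 2 lower for WT, and 2 of 3 lower and 1 higher for het. The part of such transcripts in the list counts was not tested. Of the cell cycle list, only hmgb2a, a chromatin protein of dividing cells, had enough UMIs in the haemoglobin-rich set. It was not past 2-fold there in either genotype (medians 0.44 and -0.14). Levels of mki67 in members were low, with 32 UMIs in 1.87% of members. The heat shock list had 6 of 10 higher and 1 lower for WT at 3 dpa, and 9 of 13 higher and 1 lower for het. Among haemoglobin-rich members 1 heat shock gene had enough UMIs, and it was not past 2-fold. mki67 and hmgb2a also stood higher in the rest at 3 dpa, mki67 at 61.4 against 14.0 CPM for WT and 51.6 against 13.3 CPM for het, and the part of free RNA was not tested.

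The remaining high genes, wnk4b, znfl2a and ftr76, had 0 UMIs in WT sham and 26, 23 and 22 in WT 3 dpa, which made them at least 2.83-, 2.50- and 2.40-fold higher. The het ratios were 3.56 (2.10 to 5.50), 3.14 (1.42 to 5.51) and 2.72 (1.18 to 4.71). In haemoglobin-rich het members wnk4b had 2 UMIs at sham and 3 at 3 dpa, with a ratio of 1.47 (-1.66 to 5.05), and ftr76 had 4 and 6, with 1.47 (-0.61 to 3.74). Both intervals included 0. znfl2a had 2 and 13 there, with 3.58 (1.44 to 6.77). The lowest of the 56 were the hbba1 identifier ENSDARG00000089087, igfbp1a, slc4a1a and kdm6bb. hbba1 ENSDARG00000089087 was at -0.40 (-0.43 to -0.38) for WT and -1.05 (-1.07 to -1.04) for het, and in the haemoglobin-rich set at -0.45 and -0.82. slc4a1a was at -0.30 (-0.74 to 0.16) and -0.75 (-1.07 to -0.43), with -0.58 (-1.09 to -0.07) and -0.64 (-1.07 to -0.23) in the haemoglobin-rich set. Being a rule gene, its level in members is partly set by the rule, and 25 of its 60 UMIs in WT sham came from 1 member. For kdm6bb, a histone demethylase gene, both intervals included 0, and haemoglobin-rich members gave -1.96 (-3.91 to -0.16) and 0.15 (-1.02 to 1.25). It was 2-fold above the rest in 1 of 6 libraries, WT sham, at 98.8 against 19.5 CPM. Its place among the lowest was therefore partly set by the choice of genes. igfbp1a, an insulin-like growth factor binding protein, rested on few cells: 97 of its 152 UMIs in WT sham came from 1 of 4 members, so its ratios over WT sham rest mainly on that cell.

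**Figure D5:**
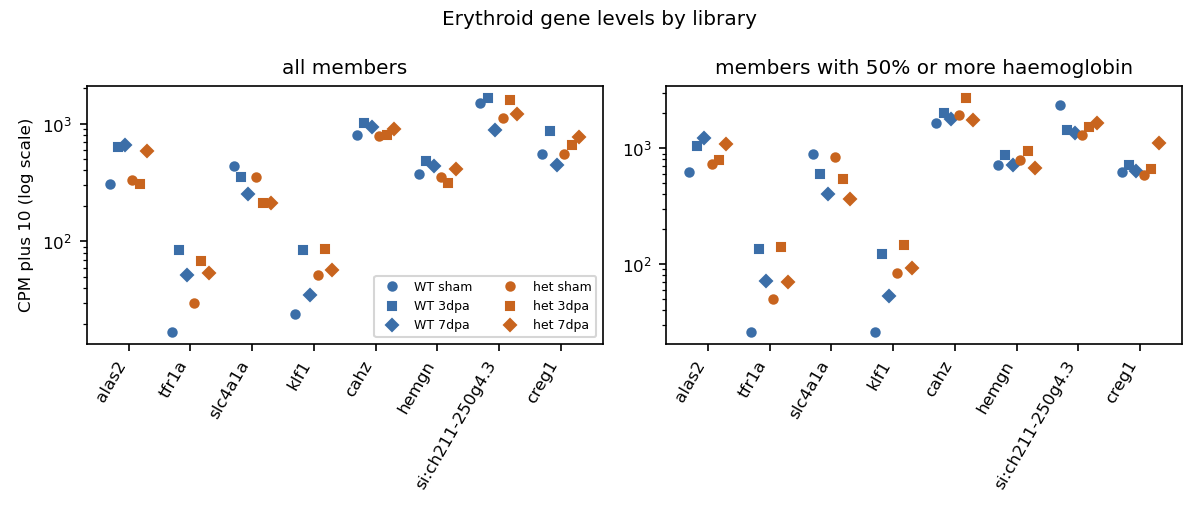
CPM plus 10 on a log axis for 8 genes in the 6 libraries (circle sham, square 3 dpa, diamond 7 dpa; blue WT, orange het), over all members on the left and over haemoglobin-rich members on the right. slc4a1a runs downward from sham to 7 dpa in both panels, and tfr1a and klf1 stand highest at 3 dpa in the haemoglobin-rich panel, where WT sham has 1 UMI of each. alas2, slc4a1a, cahz and hemgn are rule genes, so their levels in members are partly set by the rule.

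At 7 dpa over sham, 72 genes had the same sign in both genotypes. The highest were si:ch211-207c6.2, alas2, tfr1a, si:ch211-262i1.3 and zgc:56095, and the lowest igfbp1a, slc4a1a, ucp3, ccl20b and hbba2. alas2 and slc4a1a are rule genes, so their levels in members are partly set by the rule. Only 2 rule genes were seen in 11 of 24 members of WT sham and 68 of 213 of WT 7 dpa. For het this held for 55 of 120 at sham and 63 of 220 at 7 dpa. alas2 stood at 296 (214 to 401), 625 (553 to 704) and 643 (600 to 689) CPM for WT and 319 (278 to 364), 296 (255 to 341) and 578 (530 to 628) CPM for het. Its 7 dpa over sham ratio was 1.12 (0.67 to 1.60) for WT and 0.86 (0.63 to 1.09) for het, and in the haemoglobin-rich set 1.00 (0.53 to 1.51) and 0.57 (0.31 to 0.84). The median of all genes in that set was 0.38 for WT and 0.90 for het, so alas2 in het lay below it. At 3 dpa the genotypes stood apart in all members, with 1.08 (0.60 to 1.58) for WT and -0.11 (-0.40 to 0.18) for het, a difference that was not tested. Haemoglobin-rich members gave 0.78 (0.26 to 1.33) and 0.11 (-0.27 to 0.48) there, with intervals that overlapped.

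tfr1a had 1, 32 and 52 UMIs for WT and 14, 37 and 41 for het. Over sham its het ratios were 1.54 (0.62 to 2.54) for 3 dpa and 1.1 (0.20 to 2.09) for 7 dpa, and its WT ratios 3.39 (0.80 to 8.73) and 2.56 (0.02 to 7.89), with the width set by the 1 UMI of WT sham. In the haemoglobin-rich set the 3 dpa ratios were 1.71 (0.45 to 3.07) for het and 2.97 (0.32 to 8.35) for WT, beside medians of all genes of 0.59 and 0.68. At 7 dpa the tfr1a ratios were 0.60 (-0.54 to 1.89) and 1.95 (-0.62 to 7.30), beside 0.90 and 0.38, and both intervals included 0. tfr1a in the rest was also higher at 3 dpa, at 13.9 against 2.10 CPM for WT and 14.2 against 2.82 CPM for het. The 7 dpa over sham ratio of slc4a1a was -0.80 (-1.21 to -0.38) for WT and -0.76 (-1.04 to -0.48) for het, and in the haemoglobin-rich set -1.17 (-1.60 to -0.71) and -1.22 (-1.54 to -0.90). All 4 intervals lay below 0, for a rule gene whose level in members is partly set by the rule. In WT sham its 60 UMIs came from 11 members, 25 of them from 1 member. The 8 haemoglobin-rich members there held 55, so the 2 WT ratios rest on nearly the same few cells at sham. The hbba2 ratio was -0.31 (-0.40 to -0.23) for WT and -2.15 (-2.22 to -2.08) for het, and -0.58 and -2.62 in the haemoglobin-rich set. si:ch211-207c6.2 had 3, 83 and 231 UMIs for WT and 66, 59 and 238 for het, with a 7 dpa over sham ratio of 3.13 (1.56 to 5.42) and 1.40 (1.01 to 1.82), and of 2.86 (1.3 to 5.15) and 1.52 (0.99 to 2.08) in the haemoglobin-rich set.

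ccl20b, a chemokine gene, had 12 and 31 UMIs at sham and 7 dpa for WT and 68 and 64 for het. In the haemoglobin-rich set it had 0 at sham and 1 and 0 at 7 dpa. Of its 180 UMIs over all members of the 6 libraries, 167 lay in the 81 low-haemoglobin members that went against the label. ccl20b was 2-fold above the rest in 3 of 6 libraries and highest at sham, at 84.7 CPM for WT and 98.2 CPM for het. Its place among the lowest was therefore partly set by the choice of genes. ucp3 had 7 and 39 UMIs for WT and 42 and 22 for het, and its ratio was -0.66 (-1.84 to 0.75) for WT and -1.38 (-2.19 to -0.60) for het. Haemoglobin-rich members gave -0.57 (-2.11 to 1.41) and -0.87 (-2.05 to 0.31), so both intervals included 0. si:ch211-262i1.3 had 0 UMIs in WT sham and 42 in WT 7 dpa, 1.59-fold higher with 3 UMIs set in place of 0. The lower limit of its exact interval was a log2 ratio of 0.31. Its het ratio was 0.93 (0.04 to 1.90), or 1.08 (-0.16 to 2.52) among haemoglobin-rich members. zgc:56095 was at 0.82 (-0.01 to 1.80) for WT and 0.63 (0.22 to 1.05) for het, and in the haemoglobin-rich set at 0.49 (-0.35 to 1.48) and 0.33 (-0.13 to 0.81), where both intervals included 0.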

How the data were processed

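The authors deposited raw UMI counts per gene and barcode for 6 libraries (10x 3' chemistry, per the labels' protocols). The submitters' processing notes name the genome build GRCz11, Cell Ranger 3.0.2 and Seurat 3.1.4, without saying for which step. The rule that called barcodes cells is not given in the sources used here. A filtered set limits what can be seen at low depth, and free RNA can add haemoglobin UMIs to other barcodes.

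From these counts, members were chosen by the rule stated in the report (Python 3.11.15, numpy 2.4.6, scipy 1.17.1, pandas 2.3.3, matplotlib 3.10.9). No doublet caller was run; members with another type's transcripts are shown by haemoglobin share instead. UMIs were summed per library and scaled to CPM. With 1 library per group no test was made. Shares have exact Clopper-Pearson intervals, sums exact Poisson intervals and ratios exact conditional binomial intervals. The fold calculation was tested on simulated data. Alternatives were other limits on members, genes and UMIs, thinning to 500 UMIs per barcode and 2 other scalings. In the files, 528 symbols belong to more than 1 gene identifier, and these genes are named with it. A RefSeq table of assembly GRCz12tu served for names and neighbours only, and no coordinates are given.

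Genes outside the lists were named by rank: the 15 highest over the rest with at least 100 UMIs in at least 5% of members, and up to 5 highest and 5 lowest by the smallest ratio among genes of the same sign at all stages, or in both genotypes, where every pair had a library reaching 20 UMIs and the gene's CPM, averaged over libraries, was at least 2 times that in the rest. The members and lists were chosen with earlier results of these data known. The haemoglobin limits, the bands of the globin mix and the singling out of isg15 and si:ch211-250g4.3 came after their values were seen.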

Additional observations from a re-analysis of the deposited data

Results flagged for a closer look

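With 1 library per group no group could be searched for an outlying sample, and none of the differences here was tested. The following had ratios of opposite sign in groups under the same contrast, with both counting intervals leaving out 0. si:ch211-207c6.2 stood at a log2 ratio of 2.17 for het over WT at sham and -1.03 at 3 dpa, the first against 3 UMIs in WT sham, and in haemoglobin-rich members at 1.68 (0.01 to 4.02) and -0.78 (-1.50 to -0.10). hbba2 at 3 dpa over sham stood at 0.09 (0.002 to 0.18) for WT and -1.27 in het, and in haemoglobin-rich members at 0.13 and -0.68. hbaa1 for het over WT stood at 0.34 at 7 dpa and -0.36 at sham, and at 7 dpa over sham it was 0.36 in het and -0.35 in WT. Neither opposition was there in haemoglobin-rich members, where the first pair was 0.40 and 0.00 (-0.02 to 0.03) and the second -0.12 and -0.51. The hbba1 identifier ENSDARG00000089087 stood at 0.04 for het over WT at 7 dpa and -0.21 at sham, but at 0.08 (0.07 to 0.09) and 0.16 (0.13 to 0.18) in haemoglobin-rich members, so the sign at sham turned. The globin ratios rest on at least 1361 UMIs per library, so their counting intervals are narrow and do not reflect differences between pools of fish or between cells.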

How the results depend on the processing

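No paired analysis was made within a comparison, since each group is 1 library and the groups compared share fewer than 2 replicate numbers. No replicate could be left out. An additive fit of genotype and stage over the 6 libraries was not run. Share ratios for het over WT at sham and 7 dpa and for WT 7 dpa over sham stayed within their intervals under every setting that gave a value. For het over WT at 3 dpa the log2 ratio was 0.30 with at least 3 rule genes, 0.28 with at least 1000 UMIs and 0.05 with at least 50% haemoglobin. For WT 3 dpa over sham it was 4.21 after thinning to 500 UMIs and 2.65 with at least 50% haemoglobin. For het 3 dpa over sham it was 1.00 with at least 3 rule genes, 0.37 with at least 1000 UMIs, 1.78 after thinning, 0.83 with a mitochondrial limit of 10% and 0.55 with at least 50% haemoglobin. For het 7 dpa over sham it was 0.62 with at least 3 rule genes, 0.61 with at least 1000 UMIs and 1.31 with at least 50% haemoglobin. Leaving out members that carry another class left 9 members in het sham, 1 in het 3 dpa and 0 elsewhere, because cardiomyocyte transcripts are in nearly every barcode. It gave a value only for het 3 dpa over sham, reversed to -3.17 with 24 of 52 genes past 2-fold. Genes past 2-fold, in the order het over WT at sham, 3 and 7 dpa, WT 3 dpa, het 3 dpa, WT 7 dpa and het 7 dpa over sham, numbered 301, 328, 148, 540, 1077, 395 and 249. They were out of 1764, 2479, 2780, 1484, 2730, 2635 and 2292 genes tested. With at least 50 UMIs they numbered 100, 115, 78, 181, 465, 161 and 125. The genes tested were then 810, 997, 1256, 606, 1153, 1216 and 1023. With at least 50% haemoglobin the first 6 were 22, 32, 37, 94, 81 and 136, and the last was 203. Fewer genes were tested there, 193, 268, 574, 259, 232, 535 and 455. With no minimum, 5 were outside 1.5 times the main count, at 1301, 670, 2364, 1802 and 973 (het over WT at sham and 3 dpa, WT 3 dpa, het 3 dpa and WT 7 dpa over sham). These were out of 11381, 13774, 11849, 13816 and 12502 genes. With at least 3 rule genes, het over WT at sham gave 111 of 456, at 3 dpa 556 of 1609, and het 7 dpa over sham 155 of 894. With at least 1% haemoglobin, het over WT at sham gave 76 of 381. Apart from the settings' own loss of members, genes or UMIs, the cause was not tested. The haemoglobin settings were chosen after seeing the data. Depth limits klf1, tfr1a and other genes with under 50 UMIs per library, and WT sham with 24 members most of all.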
